A study of Homo sapiens with 4 samples.

Results

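The regions described here are FOXK1 peaks at the ends of intergenic long non-coding RNA (lncRNA) genes in HK-2 cells, an immortalised human proximal tubular epithelial line. A peak was a member if its pileup height was 10 or more and its midpoint lay on chromosomes 1 to 22 or X within 1 kb of either annotated end of a RefSeq lncRNA gene. The midpoint also had to lie outside every protein-coding gene and more than 5 kb from every protein-coding gene end. Pileup height is the number of overlapping fragments at the peak as the authors' peak caller gave it. The rule took 652 of 439123 peaks in the TGF-β1 list and 808 of 381673 in the control list, 1460 of 820796 in all. Where member peaks overlapped they were joined into 999 sites, which lay at 985 lncRNA genes.

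FOXK1 chromatin immunoprecipitation and sequencing had been done on HK-2 cells given 10 ng/ml TGF-β1 for 24 h and on HK-2 cells left without it as control. The 4 libraries were 1 FOXK1 precipitate and 1 input from the treated cells and the same pair from the control cells, so there were no replicates and no p-values. Chromatin was cut with micrococcal nuclease and sonicated after paraformaldehyde fixation. Both groups were the same line without any genetic change named in the labels, and peak lists hold no expression values against which the labelled cell type could be checked. The reads per library were unknown, so heights of the lists are given side by side, compare 2 libraries and are not a measure of change.

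FOXK1 is a forkhead transcription factor, known for repressing autophagy genes with the SIN3 complex and for promoting glycolysis. Forkhead domains bind DNA around the letters GTAAACA. Most lncRNA genes are transcribed by RNA polymerase II from promoters of their own, often weaker and poorer in CpG than those of protein-coding genes, and many start at enhancers. Some serve as host genes, whose introns or exons release microRNAs or small nucleolar RNAs.

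The promoter windows below, 250 bases before to 50 after a transcript start, are from RefSeq, build GRCh38.p14, of which hg38 is the browser name. They are shown because a member peak overlapped each of them. The first 5 belong to those of the 12 highest sites that lay at an annotated start, and MIR17HG, LUCAT1 and MALAT1 are widely studied genes. LINC02288 and LINC01220 were chosen after their values were seen, since they hold a forkhead match under a site of equal height in both lists. Capitals mark the forkhead letters GTAAACA and the AP-1 letters TGANTCA on either strand, where N is any base. The windows, in order and with their strands, are chr2:127226569-127226868 (plus), chr1:221845679-221845978 (plus), chr1:234963950-234964249 (minus), chr10:100373326-100373625 (plus), chr2:47345025-47345324 (minus), chr14:77040799-77041098 (plus), chr14:75294154-75294453 (plus), chr13:91347437-91347736 (plus), chr5:91314353-91314652 (minus) and chr11:65497488-65497787 (plus).
LOC124907883: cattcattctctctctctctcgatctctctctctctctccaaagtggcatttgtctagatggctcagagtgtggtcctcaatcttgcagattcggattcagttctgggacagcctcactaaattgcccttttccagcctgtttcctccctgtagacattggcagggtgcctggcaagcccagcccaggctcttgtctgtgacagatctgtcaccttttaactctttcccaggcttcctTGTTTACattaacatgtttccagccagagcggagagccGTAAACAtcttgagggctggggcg
LOC124904517: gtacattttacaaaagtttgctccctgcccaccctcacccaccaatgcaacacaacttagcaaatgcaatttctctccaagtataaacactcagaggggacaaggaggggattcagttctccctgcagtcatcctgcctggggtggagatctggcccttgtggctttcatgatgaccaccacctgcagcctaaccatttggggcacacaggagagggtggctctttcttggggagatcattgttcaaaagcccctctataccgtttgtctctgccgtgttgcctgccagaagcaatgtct
LNCATV: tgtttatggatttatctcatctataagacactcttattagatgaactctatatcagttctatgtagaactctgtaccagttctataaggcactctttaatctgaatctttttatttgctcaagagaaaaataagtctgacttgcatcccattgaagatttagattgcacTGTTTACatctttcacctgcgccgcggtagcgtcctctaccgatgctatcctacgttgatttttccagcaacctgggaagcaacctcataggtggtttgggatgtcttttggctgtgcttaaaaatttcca
OLMALINC: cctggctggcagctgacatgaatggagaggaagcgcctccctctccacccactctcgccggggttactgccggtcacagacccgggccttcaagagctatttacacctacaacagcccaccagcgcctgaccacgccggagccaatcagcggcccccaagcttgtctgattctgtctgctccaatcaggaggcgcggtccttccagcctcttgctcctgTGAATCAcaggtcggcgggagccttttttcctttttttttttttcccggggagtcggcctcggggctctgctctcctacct
EPCAM-DT: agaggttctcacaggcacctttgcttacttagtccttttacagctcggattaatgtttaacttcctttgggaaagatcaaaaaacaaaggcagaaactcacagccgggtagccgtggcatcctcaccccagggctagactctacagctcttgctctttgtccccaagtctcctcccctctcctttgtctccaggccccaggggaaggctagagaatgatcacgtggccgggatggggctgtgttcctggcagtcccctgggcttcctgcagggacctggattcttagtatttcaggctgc
LINC02288: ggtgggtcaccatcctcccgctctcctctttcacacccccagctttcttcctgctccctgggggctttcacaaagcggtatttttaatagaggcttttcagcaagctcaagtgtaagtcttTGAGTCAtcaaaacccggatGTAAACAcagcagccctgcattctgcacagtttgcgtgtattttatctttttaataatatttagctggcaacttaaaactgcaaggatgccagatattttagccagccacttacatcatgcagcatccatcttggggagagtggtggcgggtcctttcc
LINC01220: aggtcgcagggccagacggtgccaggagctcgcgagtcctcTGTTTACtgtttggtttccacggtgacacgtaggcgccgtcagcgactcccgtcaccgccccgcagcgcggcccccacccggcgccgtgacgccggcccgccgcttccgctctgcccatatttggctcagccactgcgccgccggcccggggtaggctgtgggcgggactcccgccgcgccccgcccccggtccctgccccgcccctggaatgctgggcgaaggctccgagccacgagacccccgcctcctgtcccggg
MIR17HG: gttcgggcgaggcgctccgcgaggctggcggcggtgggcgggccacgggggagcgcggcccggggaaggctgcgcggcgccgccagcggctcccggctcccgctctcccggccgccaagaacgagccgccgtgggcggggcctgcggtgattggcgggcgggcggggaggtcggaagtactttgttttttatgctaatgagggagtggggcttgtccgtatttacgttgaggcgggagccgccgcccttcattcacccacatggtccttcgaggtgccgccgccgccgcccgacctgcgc
LUCAT1: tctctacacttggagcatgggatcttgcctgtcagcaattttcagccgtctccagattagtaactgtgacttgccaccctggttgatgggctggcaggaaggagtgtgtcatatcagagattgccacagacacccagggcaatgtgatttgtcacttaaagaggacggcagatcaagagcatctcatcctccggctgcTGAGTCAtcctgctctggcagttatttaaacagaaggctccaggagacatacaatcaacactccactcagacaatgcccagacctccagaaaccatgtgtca
MALAT1: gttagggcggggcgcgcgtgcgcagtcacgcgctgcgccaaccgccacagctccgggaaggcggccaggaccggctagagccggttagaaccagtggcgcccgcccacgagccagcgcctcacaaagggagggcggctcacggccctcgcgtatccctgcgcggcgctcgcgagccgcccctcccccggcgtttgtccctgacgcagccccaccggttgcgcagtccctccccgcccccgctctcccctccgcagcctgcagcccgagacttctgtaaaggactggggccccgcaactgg

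The LOC124907883 window held 2 forkhead matches, at bases 239 and 277 counted from 1 at its 5′ end, on opposite strands and close to the annotated start. LNCATV, LINC02288 and LINC01220 each held 1 forkhead match. A match to TGANTCA was present in the windows of OLMALINC, as TGAATCA, and of LINC02288 and LUCAT1, as TGAGTCA. The AP-1 shares given below likewise count any base at N. The windows of LOC124904517, EPCAM-DT, MIR17HG and MALAT1 held neither set of letters, which says only that these letters are not in this window. MIR17HG, MALAT1 and LINC01220 had CpG-rich windows, with 42, 37 and 38 CpG dinucleotides, against 2 in that of LOC124904517.

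The members were chosen by height and position, so the values on which they were selected are given as a description. Members made up 2.21% of the TGF-β1 peaks of height 10 or more and 2.19% of the control peaks of that height. Of the peaks that were outside and over 5 kb from protein-coding genes, they were 6.54% of 9969 in the TGF-β1 list and 6.61% of 12231 in the control list. Just inside the height limit were 129 TGF-β1 and 141 control peaks of height 10, and just outside it 165 and 187 peaks of height 9 that met the rest of the rule. In the outermost 100 bp of the 1 kb window lay 46 TGF-β1 and 45 control members, and in the 100 bp beyond it 31 and 51 further peaks. Between 5 and 6 kb from a protein-coding end lay 17 TGF-β1 and 24 control members, and between 4 and 5 kb 30 and 39 peaks that the rule left out.

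Most members were low, and a few were much higher than the rest. The median height was 13 in the TGF-β1 list and 14 in the control list, the 90th percentiles were 26 and 27, and the highest were 134 and 156. Heights of 20 or more were reached by 20.4% of TGF-β1 members (133 peaks) and 22.3% of control members (180 peaks). Other intergenic peaks of height 10 or more had a median of 13 in each list, and peaks within 1 kb of protein-coding gene ends a median of 14 in each. The highest other intergenic peaks had 8140 (TGF-β1) and 4805 (control). The highest peaks at protein-coding gene ends had 455 (TGF-β1) and 414 (control), so both sets reached above the members. Members were wider than other intergenic peaks in the same height class. At heights of 10 to 14 the median width was 638 bp for members against 519 bp for other intergenic peaks in the TGF-β1 list, and 640 bp against 484 bp in the control list. Peaks at protein-coding gene ends were wider still at these heights, with 772 bp and 760 bp. These widths were compared without a test.

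Members lay more often at the starts of lncRNA genes than at their 3′ ends. Strand, which the rule did not use, was known for 667 of the 985 genes from the RefSeq promoter table. Of the 461 TGF-β1 members beside a stranded gene, 303 (65.7%) lay at a start only, 141 (30.6%) at a 3′ end only and 17 at both. Of the 557 control members beside such a gene, 367 (65.9%) lay at a start only, 167 at a 3′ end only and 23 at both. Among members of height 20 or more the share at a start only was 69.0% of 100 TGF-β1 peaks and 68.3% of 120 control peaks. A member peak was thus found at 5.47% (exact binomial 95% interval 4.82 to 6.17) of 4537 starts that the rule could take in the TGF-β1 list, and at 2.03% (1.67 to 2.45) of 5220 such 3′ ends. The control list gave 6.74% (6.03 to 7.51) of starts and 2.53% (2.12 to 2.99) of 3′ ends. These rates used lncRNA genes longer than 4000 bp. Intervals here and below cover counting error only, and neighbouring genes share peaks.

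Within 500 bp of starts the density of peaks was higher than beyond 1 kb, and within 500 bp of 3′ ends it was not. The profile used starts and 3′ ends over 10 kb from every protein-coding end, so that every bin could hold a peak. Within 500 bp of 4242 starts there were 159 TGF-β1 and 194 control peaks, a mean of 18.7 and 22.9 peaks per 1000 starts and 500 bp bin. In the 16 bins beyond 1 kb the TGF-β1 list had a median of 4.48 per 1000 starts (range 1.89 to 9.67) and the control list 6.01 (3.77 to 8.25). Within 500 bp of 4699 3′ ends the means were 4.26 in the TGF-β1 list and 5.75 in the control list. Those equalled the medians of the bins beyond 1 kb, 4.26 and 5.75. The bin from 1000 to 500 bp before the 3′ end was the highest of that profile in both lists, with 6.81 in the TGF-β1 list and 8.73 in the control list, narrowly above the highest bins beyond 1 kb, 6.60 and 8.51. Starts of protein-coding genes, counted in the same way but without the distance rule, had a peak of height 10 or more in 31.0% of 13914 cases in the TGF-β1 list and 38.3% in the control list, against 3.26% and 4.51% at their 3′ ends.

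**Figure D1:**
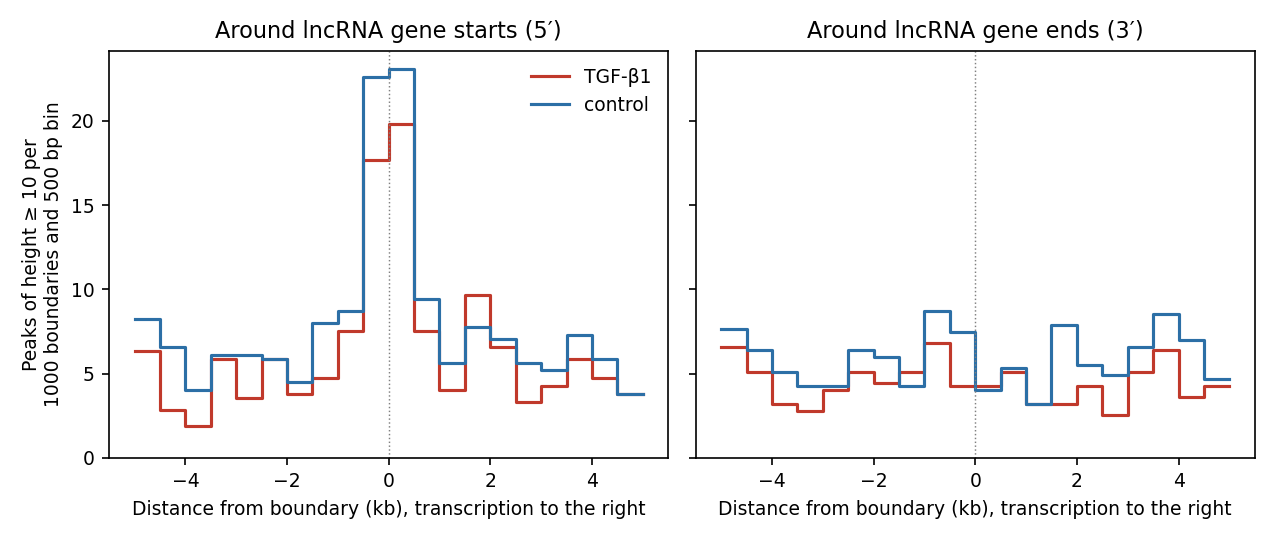
Peaks of height 10 or more around the starts (left) and 3′ ends (right) of intergenic lncRNA genes with known strand, as peaks per 1000 boundaries in each 500 bp bin, against distance in kb. Both lists rise near starts, to means of 18.7 (TGF-β1) and 22.9 (control) within 500 bp, while within 500 bp of 3′ ends the means are 4.26 and 5.75.

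Members were overlapped by peaks of the other list more often than all peaks of height 10 or more, without matching for height or width. A control peak of any height overlapped 91.9% (89.5 to 93.9) of TGF-β1 members, where all TGF-β1 peaks of height 10 or more had 84.7%. A control peak of height 10 or more overlapped 74.4% (70.9 to 77.7) of them, against 67.2% of all. A TGF-β1 peak of any height overlapped 87.1% (84.6 to 89.4) of control members, against 82.8% of all control peaks of height 10 or more. A TGF-β1 peak of height 10 or more overlapped 59.2% (55.7 to 62.6) of them, against 53.9% of all.

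Counting a peak of any height in the other list, the share was larger for higher members and lay nearer to that of protein-coding gene ends than to that of other intergenic peaks. At heights of 10 to 14, 88.0% (84.3 to 91.0) of TGF-β1 members were overlapped, against 69.8% (68.6 to 71.0) of other intergenic peaks and 92.8% (91.8 to 93.7) of peaks at protein-coding gene ends. For control peaks of these heights the shares were 79.0% (74.9 to 82.7) of members, 67.2% (66.1 to 68.3) of other intergenic peaks and 87.8% (86.7 to 88.9) at protein-coding gene ends. At heights of 30 or more all 49 TGF-β1 members (interval from 92.7%) and all 60 control members (from 94.0%) were overlapped. Other intergenic peaks of that height were overlapped in 81.4% (78.1 to 84.3) of 649 cases in the TGF-β1 list and 87.3% (84.9 to 89.5) of 822 in the control list. For overlap by a peak of any height, the intervals of members and other intergenic peaks did not meet in any of the 4 height classes of either list. For overlap by a peak of height 10 or more they did meet at heights of 15 to 19 in the control list, with 71.7% (64.5 to 78.1) of members against 64.9% (62.9 to 66.9) of other intergenic peaks, 79.3% at protein-coding gene ends and 71.0% of all peaks of these heights. No test was made of these differences, since peaks of 1 library are not replicates. The sets were classed by height and not matched for width. At heights of 10 to 14 the median widths stood in the same order as the shares. In the TGF-β1 list they were 519 bp for other intergenic peaks, 638 bp for members and 772 bp at protein-coding gene ends. In the control list they were 484, 640 and 760 bp. The part of width in these shares was not tested.

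**Figure D2:**
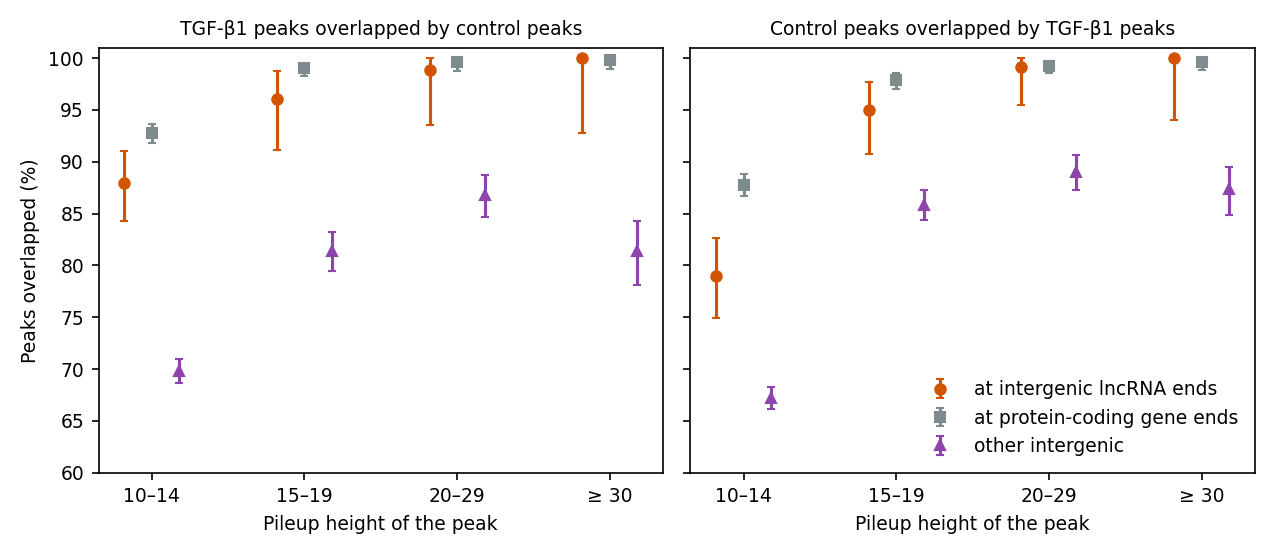
Share of TGF-β1 peaks overlapped by a control peak (left) and of control peaks overlapped by a TGF-β1 peak (right), in percent, by pileup height. Points are members (at intergenic lncRNA ends), peaks at protein-coding gene ends and other intergenic peaks, bars are exact binomial 95% intervals, and the axis starts at 60%. Members sit above other intergenic peaks in each height class, with 88.0% against 69.8% at heights of 10 to 14 in the TGF-β1 list. Peaks were not matched for width.

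Of the 999 sites, 446 had a member peak in both lists, 199 in the TGF-β1 list only and 354 in the control list only. Most sites with members in 1 list had a peak in the other too. A lower or displaced control peak overlapped 146 of the 199, and a TGF-β1 peak overlapped 250 of the 354. That left 53 sites without any control peak, the highest at 20, and 104 without any TGF-β1 peak, the highest at 23. Of member peaks, 91.9% (TGF-β1) and 87.1% (control) were overlapped by some peak of the other list. For all peaks of height 10 or more these shares were 84.7% and 82.8%. All 80 sites that reached a height of 30 in either list had a peak in both, and 36 reached it in both. A height of 20 was reached at 142 sites in the TGF-β1 list, 187 in the control list and 101 in both.

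**Figure D3:**
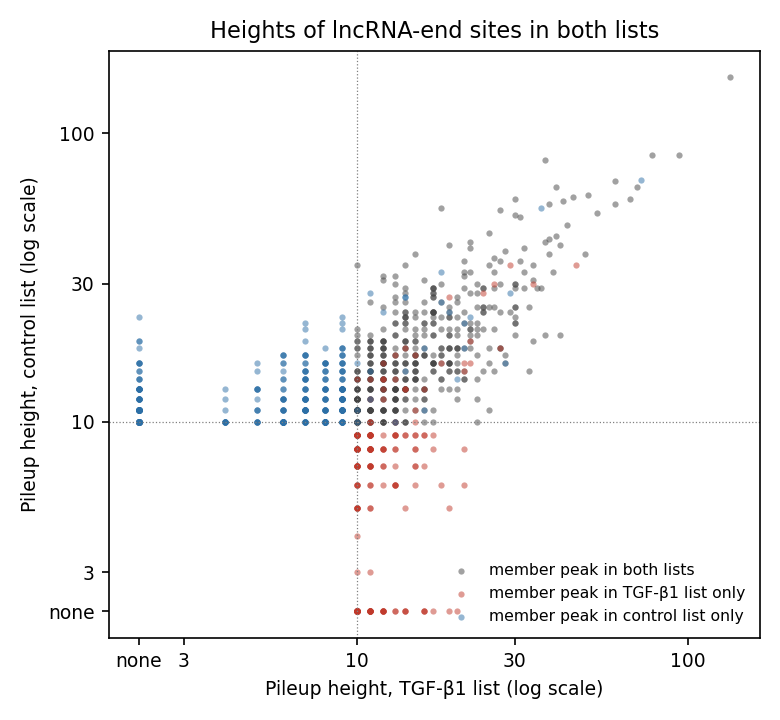
Pileup height of each of the 999 sites in the TGF-β1 list (horizontal, log scale) and the control list (vertical, log scale), the highest overlapping peak being used and "none" standing for no peak. Dotted lines mark the minimum height of 10. Sites without a peak in the other list lie at heights up to 20 (TGF-β1) and 23 (control), and the higher sites have a peak in both.

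The highest site of all was at LOC105373570, a lncRNA gene without strand in the promoter table, and covered chr2:113818132-113819311 (hg38). It had a height of 134 in the TGF-β1 list and 156 in the control list, and its nearest protein-coding end, that of the sugar transporter family gene SLC35F5, was 62113 bp away. LOC124907883, whose window held the 2 forkhead matches, had 94 in the TGF-β1 list and 84 in the control list and lay 6539 bp from CYP27C1, a retinoid-metabolising cytochrome P450. LOC124904517 had 78 (TGF-β1) and 84 (control), 103351 bp from DUSP10, a phosphatase of p38 and JNK kinases. These 3 sites were the highest in both lists. The DAGARR site lay at the gene's 3′ end, 7213 bp from HEG1, and had 37 in the TGF-β1 list and 81 in the control list, the widest gap among the 12 highest sites.

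Other high sites lay at OLMALINC, EPCAM-DT and LNCATV. OLMALINC, a lncRNA named for oligodendrocyte maturation that neighbours the stearoyl-CoA desaturase gene SCD, had 70 in the TGF-β1 list and 65 in the control list, 8833 bp from SCD. EPCAM-DT is the divergent transcript of EPCAM, which encodes an epithelial adhesion molecule. Its start carried a site of 50 (TGF-β1) and 61 (control), 24684 bp from EPCAM, and its 3′ end a site of 40 (TGF-β1) and 65 (control), 15084 bp from the calmodulin gene CALM2. LNCATV had 72 in the TGF-β1 list and 69 in the control list at its start, 145996 bp from TOMM20. Its TGF-β1 peak was no member because the midpoint fell outside the 1 kb window.

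The last 4 of the 12 highest had no strand in the promoter table. LINC02977 had 67 in the TGF-β1 list and 59 in the control list, LOC105375782 had 60 (TGF-β1) and 68 (control), LINC01275 had 60 (TGF-β1) and 57 (control), and LOC107986719 had 45 (TGF-β1) and 60 (control). Of the 12 highest sites, 5 were higher in the TGF-β1 list and 7 in the control list. Their nearest protein-coding ends were those of SUSD1, TRAPPC9, PEDS1 and TMEM178B, at 11611, 6102, 12340 and 20187 bp.

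**Figure D4:**
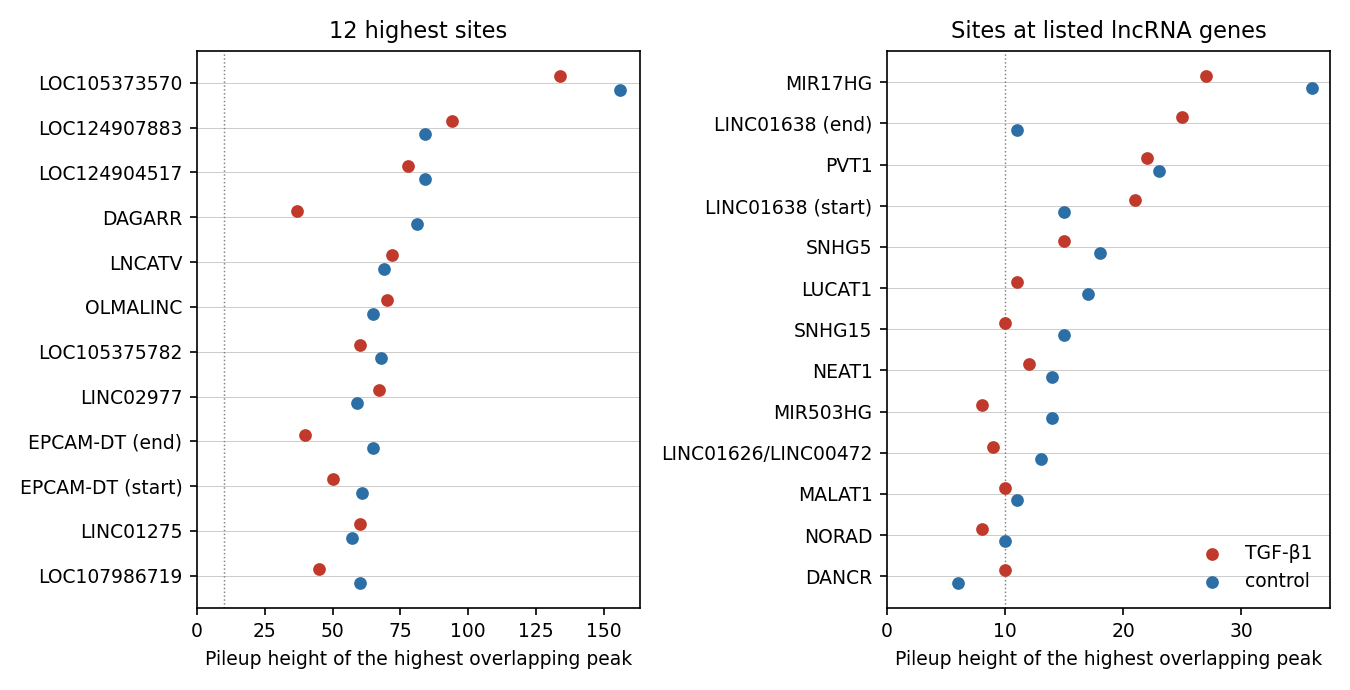
Pileup height in the TGF-β1 list (red, upper point) and the control list (blue, lower point) of the 12 highest sites (left) and of sites at a list of widely studied lncRNA genes (right), each the highest overlapping peak of 1 library. LOC105373570 leads with 134 (TGF-β1) and 156 (control), and the dotted line marks the minimum of 10.

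Sites of a single list were low. The 5 highest with no control peak were at FAM230G with 20, LOC105369885 with 19, LINC01883 with 17, and LOC440742 and LOC101928143 with 16 each, LOC105374151 being tied at 16. FAM230G belongs to a family of near-identical copies on chromosome 22, so its site is uncertain. The 5 highest with no TGF-β1 peak were at LOC105377306 with 23, LOC105370780 and LINC01213 with 19 each, LOC124901445 with 18 and LOC100130987 with 16. LOC124902923, LOC124906217 and PIK3CA-DT were tied with the last at 16. Of these 8 control sites, that at PIK3CA-DT lay at a 3′ end and the others at an annotated start. Of the 6 TGF-β1 sites, those at LOC105369885, LINC01883, LOC440742 and LOC105374151 lay at a 3′ end, that at FAM230G at a start, and LOC101928143 had no strand. These sites are too few to compare the lists, and the placement of all sites of a single list was not counted. Of all members beside a stranded gene, 65.7% in the TGF-β1 list and 65.9% in the control list lay at a start only.

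A list of 55 widely studied lncRNA symbols was chosen with results of these data known, so its count is only a description. Of the 55, 53 were lncRNA genes in the table, 37 had an end that the rule could take and 12 had a member peak. Among all 11477 genes that the rule could take, 8.52% had one. MIR17HG had the highest of these sites, with 27 in the TGF-β1 list and 36 in the control list at its start. PVT1, the neighbour of MYC, had 22 (TGF-β1) and 23 (control), and its TGF-β1 peak had its midpoint outside the site. LINC01638 carried sites at both of its ends, with 25 (TGF-β1) and 11 (control) at the 3′ end and 21 (TGF-β1) and 15 (control) at the start.

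The nuclear lncRNAs NEAT1 and MALAT1 had sites no higher than the median member, 13 in the TGF-β1 list and 14 in the control list. NEAT1, the scaffold of paraspeckles, had 12 in the TGF-β1 list and 14 in the control list, and MALAT1, a transcript of nuclear speckles, had 10 (TGF-β1) and 11 (control) at its start. NORAD, a cytoplasmic lncRNA that binds Pumilio proteins, had 8 (TGF-β1) and 10 (control). LUCAT1, a stress-responsive lncRNA, had 11 (TGF-β1) and 17 (control), and a site shared by LINC01626 and LINC00472 had 9 (TGF-β1) and 13 (control). DANCR was the 1 gene of the list whose height was lower in the control list apart from LINC01638, with 10 in the TGF-β1 list and 6 in the control list. MEG3, CYTOR, MIR100HG, FENDRR and CASC15 were among those that the rule could take and that had no member peak.

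Hosts of small nucleolar RNAs, whose introns release guides for ribosomal RNA modification, had members most often of the symbol classes. A member peak was found at 6 of the 9 SNHG genes that the rule could take (66.7%, interval 29.9 to 92.5), 5 in the TGF-β1 list and 6 in the control list, against 8.52% of all genes. SNHG5 had 15 in the TGF-β1 list and 18 in the control list, and SNHG15 had 10 (TGF-β1) and 15 (control). Named after their values were seen, the start of SNHG33 had 12 (TGF-β1) and 18 (control), SNHG26 had 11 (TGF-β1) and 15 (control), SNHG11 had 12 (TGF-β1) and 10 (control), and SNHG30 had a control peak of 10 and none in the TGF-β1 list. None of these sites reached 20, and 9 genes are too few for more than this count.

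MicroRNA host genes (MIR...HG) had members at 10 of 65 (15.4%, interval 7.63 to 26.5), 5 in the TGF-β1 list and 9 in the control list. Among all genes that the rule could take the share was 8.52%. In the TGF-β1 list the hosts had 7.69% (2.54 to 17.0) against 5.65% of all genes. In the control list they had 13.8% (6.53 to 24.7) against 6.997%. Each interval holds the share of all genes, so these counts do not set the class apart. Highest of these hosts was MIR17HG, the host of the miR-17-92 cluster, which drives proliferation. Named after their values were seen, DLEU2, the host of miR-15a and miR-16-1, had 26 in the TGF-β1 list and 30 in the control list, and MIR3142HG, within which miR-146a lies, had 26 (TGF-β1) and 25 (control). MIR181A1HG, the host of miR-181a and miR-181b, had 24 (TGF-β1) and 24 (control), and MIR222HG, the host of miR-221 and miR-222, had 18 (TGF-β1) and 26 (control). The TGF-β1 heights of these last 2 sites came from peaks with their midpoint outside the site, and the highest TGF-β1 peak with its midpoint inside had 11 at MIR181A1HG and 7 at MIR222HG. These 5 sites lay at the start of the host gene. MIRLET7A1HG had 7 in the TGF-β1 list and 16 in the control list, and MIR503HG had 8 (TGF-β1) and 14 (control) at its 3′ end.

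The main arms of the miR-17-92 microRNAs and of miR-221 and miR-222 are shown because their hosts carried the start sites just described, with the seed (bases 2 to 8) in capitals. They are from RefSeq on GRCh38.p14. The microRNAs were not measured in these libraries.
hsa-miR-17-5p: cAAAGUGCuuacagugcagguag
hsa-miR-20a-5p: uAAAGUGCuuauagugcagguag
hsa-miR-18a-5p: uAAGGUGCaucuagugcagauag
hsa-miR-19a-3p: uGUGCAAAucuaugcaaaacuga
hsa-miR-19b-3p: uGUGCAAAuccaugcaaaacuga
hsa-miR-92a-3p: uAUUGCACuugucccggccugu
hsa-miR-221-3p: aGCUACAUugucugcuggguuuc
hsa-miR-222-3p: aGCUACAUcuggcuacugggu

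By seed, miR-17-5p went with miR-20a-5p, miR-19a-3p with miR-19b-3p, and miR-221-3p with miR-222-3p, while miR-18a-5p and miR-92a-3p had seeds of their own. The MIR17HG window printed above ends upstream of all 6 microRNAs of the cluster.

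Among the other symbol classes, members were found at 244 of 2168 LINC genes (11.3%, 9.95 to 12.7), 596 of 8017 LOC genes (7.43%, 6.87 to 8.03), 43 of 466 antisense genes (9.23%, 6.76 to 12.2) and 66 of 477 with other symbols (13.8%, 10.9 to 17.3). Divergent transcripts had them at 13 of 275 (4.73%, 2.54 to 7.95). The start of a divergent transcript usually lies beside its protein-coding partner and is then outside the rule, and in this class only the EPCAM-DT site of 50 (TGF-β1) and 61 (control) lay at a stranded start. Genes with a curated transcript (accessions that begin with NR) had a member more often, 443 of 4021 (11.0%, 10.1 to 12.03), than those with predicted transcripts only, 535 of 7456 (7.18%, 6.60 to 7.78). These classes were compared without a test. By location, 19 lncRNA genes with a member peak held 35 microRNA genes, those on chromosome 8 not being counted. The same count was not made for lncRNA genes without a member peak, so whether 19 is many or few is unknown.

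The letters of several factors were more frequent in member promoters than in promoters of other lncRNA genes that the rule could take. A member peak overlapped 413 promoter windows of 388 lncRNA genes. Both strands were searched and windows of 1 gene can overlap each other. Forkhead letters, GTAAACA, stood in 14.9% (8.93 to 22.8) of the 114 windows under members of height 20 or more and in 7.36% (4.67 to 10.9) of the 299 under lower members. They stood in 4.62% (4.15 to 5.13) of 7266 windows of other lncRNA genes that the rule could take, and in 3.42% of all 34961 windows of the table. Those other genes were taken if either end met the rule, so some of their windows may lie near or inside protein-coding genes. Some may also carry peaks that are not members. AP-1 letters, TGANTCA, stood in 29.8% (21.6 to 39.1) and 18.1% (13.9 to 22.9) of the windows under higher and lower members, against 10.5% (9.85 to 11.3) of other lncRNA windows and 7.68% of all windows. Most windows under members thus held neither.

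Member windows differed from peak-bearing protein-coding windows, of which there were 7913. The ETS letters CCGGAAGT stood in 2.18% (1.00 to 4.10) of the 413 member windows, against 9.97% (9.32 to 10.7) of those protein-coding windows, 1.54% of other lncRNA windows and 4.14% of all. Forkhead letters stood in 9.44% (6.80 to 12.7) of member windows, against 3.44% (3.05 to 3.86) of the protein-coding windows. AP-1 letters stood in 21.3% (17.5 to 25.6) of member windows, against 5.00% (4.53 to 5.51) of the protein-coding windows. The E-box CACGTG was found in 8.96% (6.39 to 12.1) of member windows, 11.9% of the protein-coding windows, 4.54% of other lncRNA windows and 7.27% of all. The CRE letters TGACGTCA were in 2.66% of member windows, 3.55% of protein-coding windows, 0.867% of other lncRNA windows and 1.85% of all, and the NRF1 core GCATGCGC in 3.63%, 5.84%, 1.42% and 3.06%. Of the 14218 protein-coding windows without a peak of height 10 or more, 2.52% held forkhead, 6.79% AP-1 and 2.76% ETS letters. In the same windows the E-box stood in 6.37%, the CRE letters in 1.54% and the NRF1 core in 2.57%. None of these letters contains or equals another set, and no test was made.

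Base composition differed between these sets of windows as well. The median GC content was 50.8% in windows under members of height 20 or more and 53.7% under lower members, against 47.3% in other lncRNA windows and 64.7% in the peak-bearing protein-coding windows. At least 10 CpG dinucleotides were present in 27.2% of windows under higher members and 47.8% under lower members, against 25.7% and 91.5% in the same 2 comparison sets. The part of base composition in the motif shares was not tested. A match is a description of letters and not a binding site.

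**Figure D5:**
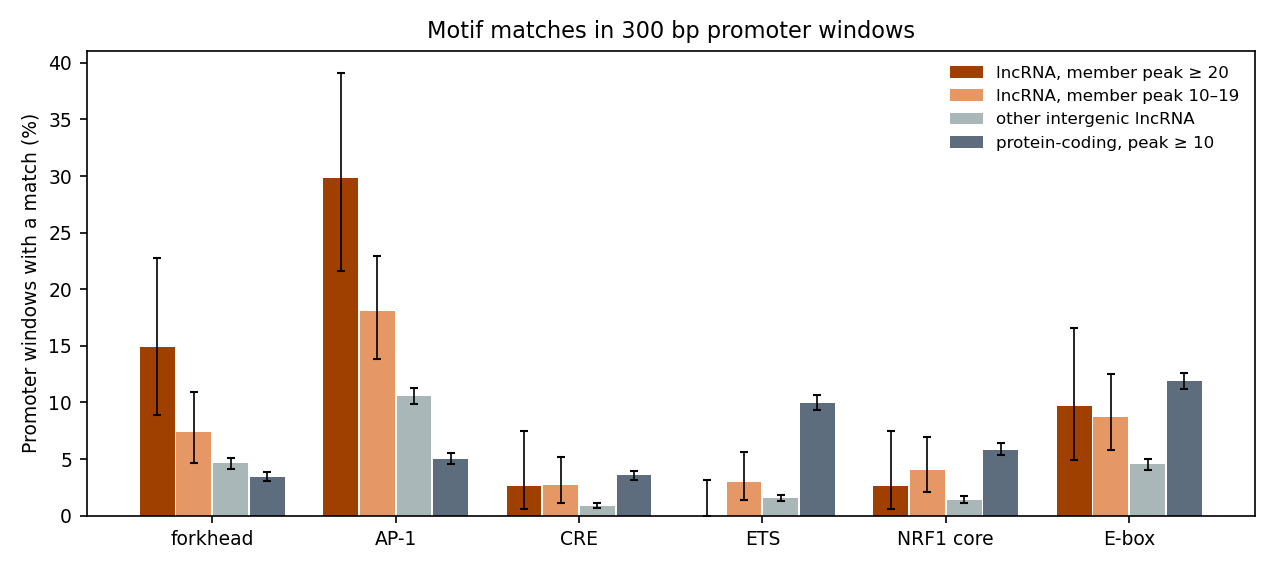
Share of RefSeq promoter windows, in percent, that hold each set of letters on either strand. Shown are lncRNA windows under members of height 20 or more and of 10 to 19, and protein-coding windows with a peak of height 10 or more. The set labelled other intergenic lncRNA holds windows of other lncRNA genes that the rule could take at either end. Bars carry exact binomial 95% intervals, and forkhead letters reach 14.9% and AP-1 letters 29.8% under the higher members.

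Most sites stood alone, and a few lay in groups. With a limit of 100 kb between neighbours, chosen after the data were seen, 667 sites had no neighbour and 9 groups held 4 or more sites, 47 in all. The largest group, 9 sites over 219 kb of chromosome 1 (234526959 to 234746372), ran from LINC01354 to LOC105373210 with TARBP1 and IRF2BP2, a transcriptional corepressor gene, as the nearest protein-coding genes. TGF-β1 peaks were present at 8 and control peaks at 9 of these sites, with the highest at 39 (TGF-β1) and 35 (control). A second group of 6 sites followed at 234875436 to 235070481 and included LNCATV, with TGF-β1 and control peaks at all 6. On chromosome 20, 5 sites over 156 kb at LINC01275, LINC01273, LOC105372656, LINC01270 and LINC01271 had PEDS1 and CEBPB, a bZIP transcription factor gene, as the nearest protein-coding genes, and all had peaks in both lists, up to 60 in the TGF-β1 list and 57 in the control list. LINC01220, one of the promoters printed above, had 38 in each list and lay 11778 bp from FOS, an AP-1 subunit gene.

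Chromosome 1 held the most sites, 134, and 13.9% of the lncRNA genes there that the rule could take had a member, against 3.48% on chromosome 13. Members were more numerous in the control list on most chromosomes, with 110 control against 79 TGF-β1 members on chromosome 1. TGF-β1 members were the more numerous on chromosomes 5 (35 against 34), 13 (15 against 7) and 16 (16 against 13). These counts are small, use the same minimum height in both lists and come from a single library per list, of unknown depth. With a minimum of 9 in the TGF-β1 list alone, members of all chromosomes numbered 817 there and 808 in the control list. Peaks outside the rule were not counted by chromosome. Whether the member counts follow those of all peaks in each list was therefore not tested. Few sites lay by other small RNA genes. A tRNA gene end lay within 1 kb of 18 sites (1.80%), a snRNA gene end of 6, a microRNA gene end of 7 and a snoRNA gene end of 1, at DANCR. Pseudogene ends lay within 1 kb of 17 sites and ends of transcribed pseudogenes of 15. The same counts were not made for other peaks, so whether these shares are low or high among peaks is unknown. The median distance of a member from the nearest protein-coding end was 33953 bp in the TGF-β1 list and 32612 bp in the control list, and 39.4% and 38.1% were over 50 kb from every such end.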

How the data were processed

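Each of the 2 deposited peak lists, 1 for each FOXK1 library, gives a peak's position and a signal in whole numbers, the authors' pileup height, with no scaling stated. The submitters' processing notes name bcl2fastq (version 2.17), MACS2 (version 2.1.1.20160309) and the build hg38. Aligner, filters, calling threshold and read depth are not given in the sources used here. Starts were taken to count from 0, so a printed start may be off by 1.

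Members, sites, overlaps of at least 1 bp, shares and exact (Clopper-Pearson) binomial 95% intervals were computed in Python 3.11.15 with scipy 1.17.1, pandas 2.3.3 and numpy 2.4.6. Plots were made with matplotlib 3.10.9. The code was tested on simulated peaks. RefSeq gene rows with scaffold coordinates under a chromosome name were left out, which left 17950 lncRNA and 19835 protein-coding genes. Strand was found for 11384 of the lncRNA genes.

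Named sites were the 12 highest, the 5 highest of each list with no peak in the other, and those at a list of widely studied lncRNA genes. Others are said to be chosen after their values were seen. Members and lists were chosen with earlier results of these data known. Other minimum heights, window sizes and motif letters were tried.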

Additional observations from a re-analysis of the deposited data

How the results depend on the processing

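No replicate could be left out, and no p-value was made, because each condition had 1 library. No paired analysis was possible because the groups compared share fewer than 2 replicate numbers. Of 77 recomputed counts and shares, 51 stayed within 1.5 times the count or within the interval of the share. At a minimum height of 15 there were 261 TGF-β1 and 360 control members, 427 sites, 192 of them with members in both lists, and 439 genes, and 97.7% of TGF-β1 and 97.2% of control members were overlapped by the other list. At 20 these values were 133, 180, 223, 90 and 229, and 99.2% and 99.4%. A minimum of 9 in the TGF-β1 list alone brought its number of peaks nearest to that of the control list. There were then 817 TGF-β1 and 808 control members, where the main setting gave 652 and 808. The shares overlapped were 87.4% of TGF-β1 and 87.1% of control members. The larger number of control members was thus not seen at this setting. Within 500 bp of a lncRNA end there were 409 TGF-β1 and 508 control members, 651 sites and 266 in both lists, and within 2 kb 993, 1219, 1508 and 674. With TAAACA for GTAAACA the share of windows with a match was 22.7% for lncRNA genes with a member at either end (6.70% with GTAAACA) and 16.8% for other lncRNA genes (4.27%). In the windows that a member itself overlapped, the share with GTAAACA was 9.44%. These settings differ in limits, letters or the set of windows, and what lies behind each change was not tested. With only peaks whose midpoint lies inside the site, PVT1 and NORAD had 0 in the TGF-β1 list, and 68 other heights, of the sites named by rule, did not move; of the sites named after their values were seen, MIR181A1HG and MIR222HG had 11 and 7 in the TGF-β1 list. Depth is unknown and limits every count.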
